A study of Mus musculus with 12 samples.

Results

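The Ly6 surface antigens of T cells were followed in CD4 and CD8a cells of the mouse spleen as the genes whose names start with Ly6a, Ly6c or Ly6e. This rule picked 5 genes, Ly6a, Ly6a2, Ly6c1, Ly6c2 and Ly6e, among the 3684 genes listed for either cell type. All 5 were among the 2999 genes listed for CD4 cells, while Ly6a, Ly6c2 and Ly6e were also among the 2851 genes listed for CD8a cells. Ly6c1 and Ly6a2 have no CD8a values here and were not analysed in those cells. The rule reads gene names only.

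Proteins of the Ly6 family are small, cysteine-rich domains held on the outer face of the cell membrane by a glycosylphosphatidylinositol (GPI) anchor. Ly6a is Sca-1, an antigen best known from blood stem cells that activated and memory T cells of C57BL/6 mice also carry. Ly6c1 and Ly6c2 encode the near-identical proteins recognised as Ly6C, which marks inflammatory monocytes and, among T cells, memory and effector CD8 cells. Ly6e encodes another GPI-anchored member, found on thymocytes and many other cells. Ly6a and Ly6e are known interferon-inducible genes, and Ly6C on T cells is also raised by interferon.

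Spleens of 12 mice were dissociated, erythrocytes were lysed and all splenocytes were profiled by droplet single-cell RNA sequencing, which counts the 3' ends of transcripts. The 4 groups of 3 mice were S100a9-/- C57Bl6/J mice after repeated social defeat stress, wild-type C57Bl6/J mice after the same stress, S100a9-/- mice without stress and wild-type mice without stress. Repeated social defeat exposes a mouse to attacks by a dominant mouse. The stress paradigm ran over 10 days, 1 day of behaviour tests followed, and spleens were taken on day 12. The age and sex of the mice were not given in the labels, and whether the S100a9 deletion is confined to a cell type was not stated.

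Every level below is the authors' average expression of a gene in the CD4 or CD8a cells of 1 mouse, on a linear scale per 10000. Such an average does not tell apart a larger share of cells with the transcript and more transcript per cell. The listed genes summed to between 8120 and 8225 per mouse in CD4 cells after stress and to between 7367 and 7562 without stress, and to between 8102 and 8270 against 7419 and 7615 in CD8a cells. These sums moved with stress, and their part in the stress differences was not tested beyond the rescaled and centred fits given with the results. Cell numbers and read depth per mouse are unknown. Cd4 stood at 1.66 to 3.01 in the CD4 cells, in which Cd8a lay between 0.0526 and 0.269, and Cd8a stood at 3.38 to 5.27 in the CD8a cells. The Cd4 level was 1.66 to 1.85 in CD4 cells of stressed wild-type mice, against 2.58 to 3.01 in unstressed ones (-0.64 ± 0.08, limma adjusted p = 3.2e-05), and 1.86 to 2.47 in stressed knockout mice, against 2.59 to 2.72 in unstressed ones. Cd8a and Cd8b1 together summed in CD8a cells to between 11.4 and 13.3 in stressed knockout and 12.7 and 13.4 in stressed wild-type mice, against 14.4 to 16.9 and 14.7 to 16.1 in unstressed knockout and wild-type mice, and Cd8b1 was called lower after stress in both genotypes and Cd8a in knockout mice. The part of these markers in the Ly6 stress differences was not tested. S100a9 was low everywhere, at 0.0228 to 0.0294 in the CD4 cells of stressed mice labelled S100a9-/- and at 0.0418 to 0.0493 in those of the unstressed ones, against 0.0595 to 0.111 and 0.00449 to 0.0167 in stressed and unstressed wild-type mice. T cells are not a source of this neutrophil and monocyte protein, and which part of the gene the mutant lacks is not given, so the S100a9 level does not test the genotype labels, and knockout below is the label's word. The mitochondrial gene mt-Nd3 did follow the labels, at no more than 0.0111 in the T cells of any mouse labelled knockout, against 0.993 to 3.02 in wild-type mice, so the mice of the 2 genotypes differed outside S100a9 as well.

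The members are neighbours on chromosome 15, where the first start and the last end lie 180.1 kb apart (GENCODE M21, GRCm38, the mm10 assembly). Ly6e occupies chr15:74955051-74959905 on the plus strand. The others lie on the minus strand, Ly6a at chr15:74994877-74998031, Ly6c1 at chr15:75044018-75048830, Ly6c2 at chr15:75108158-75111970 and Ly6a2 at chr15:75131377-75135128. GENCODE M21 names Ly6a2 I830127L07Rik and classes it as a transcribed unprocessed pseudogene, whereas the other 4 are protein-coding. The longest coding transcripts of Ly6c1 and Ly6c2 were 97.6% identical over the shorter one. They shared 29.9% of the 50-base windows of the last 300 bases, where a 3' library reads. A read that lies wholly within a shared stretch cannot be assigned to one of the pair, so their separate levels are uncertain. The window length was chosen here, and the share of reads affected was not measured. No 50-base window of those ends was shared between Ly6a and any other member, or between Ly6e and any other member.

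RefSeq promoters were at hand for 3 of the 5 members, Ly6c1, Ly6c2 and Ly6a2. The 250 bases before the first listed start of each (GRCm38.p6) are printed. In CD4 cells Ly6c2 was called under stress and Ly6c1 was not. The ratio of the pair overlapped between stressed and unstressed mice (exact permutation p = 0.2 in wild-type and 0.3 in knockout mice), so a difference between the 2 genes was not shown. A part of the promoters in their levels was not tested. Capitals mark TATAAA, the core of a TATA box.
Ly6c1, chr15:75048838-75049087, minus strand: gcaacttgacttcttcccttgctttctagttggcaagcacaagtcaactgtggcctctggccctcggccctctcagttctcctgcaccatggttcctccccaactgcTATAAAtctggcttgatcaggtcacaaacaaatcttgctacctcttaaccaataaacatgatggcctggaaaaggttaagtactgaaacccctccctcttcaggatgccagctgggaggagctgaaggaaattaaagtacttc
Ly6c2, chr15:75111972-75112221, minus strand: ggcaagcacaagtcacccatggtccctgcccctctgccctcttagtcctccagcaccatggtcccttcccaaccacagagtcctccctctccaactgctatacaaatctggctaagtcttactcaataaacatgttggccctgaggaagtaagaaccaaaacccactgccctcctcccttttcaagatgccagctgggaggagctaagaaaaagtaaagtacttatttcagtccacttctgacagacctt
Ly6a2, chr15:75135129-75135378, minus strand: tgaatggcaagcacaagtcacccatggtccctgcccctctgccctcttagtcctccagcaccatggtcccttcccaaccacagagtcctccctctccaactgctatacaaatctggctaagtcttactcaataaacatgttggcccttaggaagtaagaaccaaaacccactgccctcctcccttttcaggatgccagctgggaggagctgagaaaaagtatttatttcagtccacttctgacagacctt
Over windows from 250 bases before to 50 bases after the start, the Ly6c2 and Ly6a2 promoters had 96.7% identical bases, whereas Ly6c1 had 69.3% identical bases with Ly6c2 and 68.7% with Ly6a2. TATAAA occurred once in the Ly6c1 window and not in the other 2, and 13.62% of the 32851 promoters in the table held it. Neither the core of an interferon-stimulated response element nor TTCNNNGAA, a gamma-activated sequence, occurred in the 3 windows on either strand. Of all promoters, 3.44% held that core and 8.30% held TTCNNNGAA. These letters describe the windows only.

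The cell types were set apart by these antigens in every mouse. Ly6c2, whose product marks memory CD8 cells, was higher in CD8a than in CD4 cells of all 12 mice, by 4.31-fold to 44.4-fold with a median of 10.9-fold. Ly6a was lower in CD8a than in CD4 cells of all 12 mice, and its CD4 level was 3.64 to 8.07 times its CD8a level. Ly6e was also lower in CD8a cells of all 12 mice, with a CD4 level 1.25 to 1.55 times the CD8a level.

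**Figure D1:**
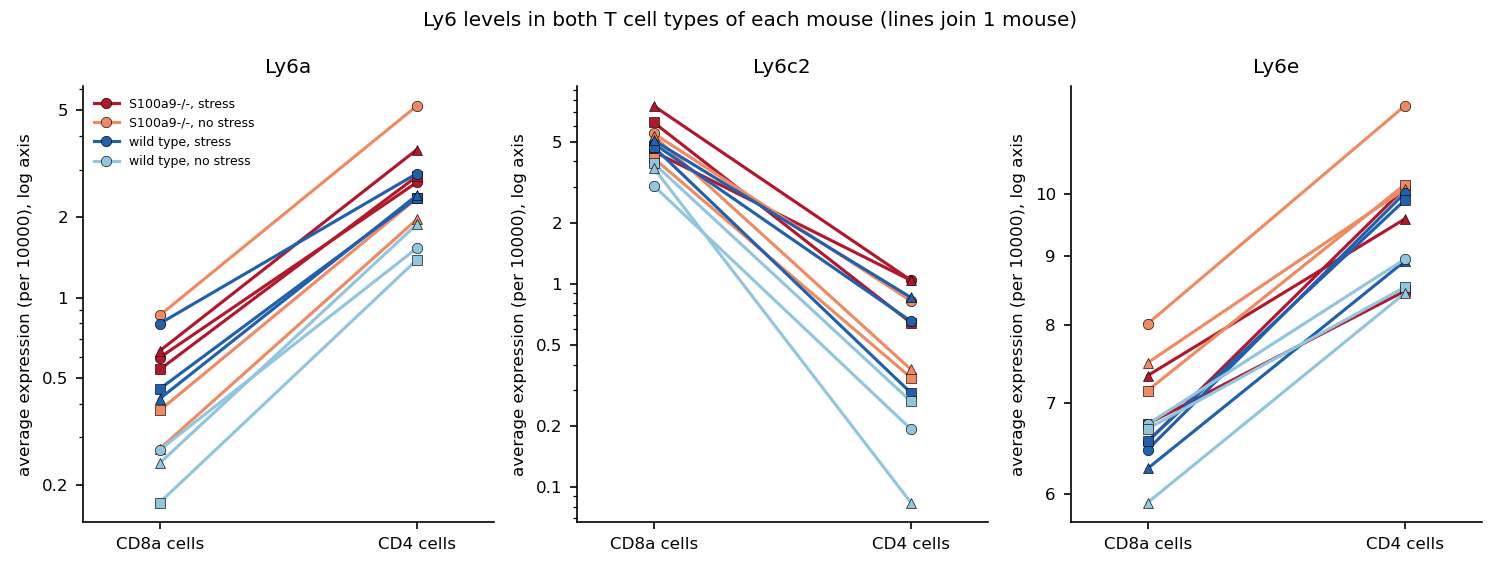
Average expression (per 10000, log axis) of Ly6a, Ly6c2 and Ly6e in CD8a (left) and CD4 cells (right). Each line joins the values of 1 of 12 mice, coloured by group, and marker shapes give the mouse number within its group. All 12 lines rise to CD4 for Ly6a and Ly6e and all 12 fall to CD4 for Ly6c2.

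In the fit of within-mouse differences over the 2166 genes listed for both cell types (limma on log2(value + 0.1), Benjamini-Hochberg adjustment), the CD8a minus CD4 difference over the 4 groups was 3.10 ± 0.15 (SE) for Ly6c2 (adjusted p = 1.26e-08). It was -2.26 ± 0.07 for Ly6a (adjusted p = 5.68e-10) and -0.48 ± 0.03 for Ly6e (adjusted p = 2.81e-07). Thus 1 member was called higher and 2 lower in CD8a cells, where 17.3% of all genes were called higher and 35.5% lower. Of the 2166 genes, 0.0923% had a larger difference in either direction than Ly6c2, 0.231% a larger one than Ly6a and 3.92% a larger one than Ly6e. The 3 members passed the test within each of the 4 groups too. The Ly6c2 difference was 2.61 in stressed knockout mice, 2.93 in stressed wild-type mice, 3.12 in unstressed knockout mice and 3.75 in unstressed wild-type mice, with an SE of 0.30 each. Of all genes, 9.1%, 7.34%, 8.45% and 6.83% were called higher in CD8a cells of these 4 groups in the same order, and 17.4%, 16.4%, 14.9% and 10.1% were called lower. The Ly6a difference lay between -2.43 in unstressed knockout mice and -2.05 in stressed wild-type mice, and the Ly6e difference between -0.57 in stressed wild-type mice and -0.42 in unstressed wild-type mice.

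Stress raised Ly6a and Ly6c2 in both T cell types of wild-type mice. Ly6a was about 1.60 times as high in CD4 cells and 2.45 times as high in CD8a cells of stressed mice, and Ly6c2 was 3.33 times as high in CD4 cells and 1.38 times as high in CD8a cells, as ratios of group means. Ly6e, Ly6c1 and Ly6a2 did not pass the test with all mice and the values as deposited. The question of this comparison is what repeated social defeat changes in splenic T cells of otherwise normal mice.

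**Figure D2:**
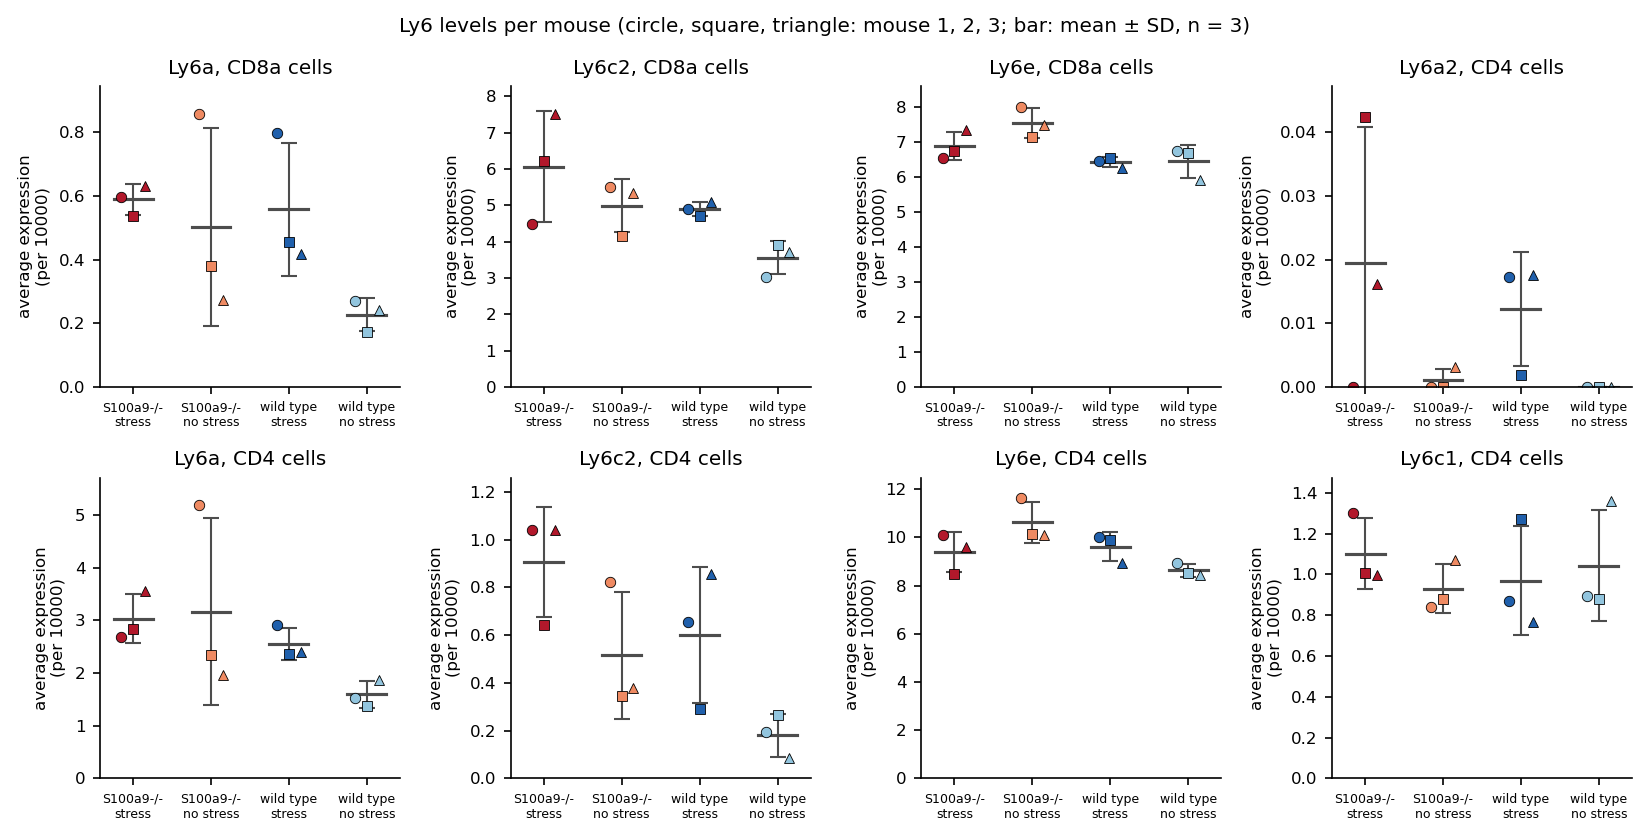
Average expression per mouse (per 10000) of each Ly6 antigen in the 4 groups, with 3 mice each (circle, square and triangle for mouse 1, 2 and 3) and the mean ± SD. Ly6a and Ly6c2 of stressed wild-type mice lie above those of unstressed wild-type mice in both cell types, and the circle of unstressed knockout mice is the highest Ly6a value in both.

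In CD8a cells, Ly6a was 0.799, 0.456 and 0.419 in the stressed wild-type mice, against 0.270, 0.171 and 0.241 in the unstressed ones. The groups did not overlap, and the difference was 0.97 ± 0.19 on the log2 scale (SE; limma, adjusted p = 0.000382). Ly6c2 in CD8a cells was 4.90, 4.71 and 5.08 after stress, against 3.04, 3.92 and 3.71 without it. These groups did not overlap either, with a difference of 0.46 ± 0.09 (adjusted p = 0.00048 by limma). Ly6e was 6.47, 6.56 and 6.26 in the stressed mice and 6.76, 6.70 and 5.91 in the unstressed ones. These groups overlapped, and the difference of -0.003 ± 0.07 (adjusted p = 0.974 by limma, fitted over all 2851 CD8a genes because Ly6e was not listed for the comparison) had a 95% interval from -0.16 to 0.15. Of those genes 54.0% were called in either direction, and centring each mouse on its median turned the Ly6e difference to 0.19 (adjusted p = 0.0208).

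In CD4 cells, Ly6a was 2.90, 2.35 and 2.41 in the stressed wild-type mice, against 1.53, 1.38 and 1.88 in the unstressed ones. All stressed mice were above all unstressed mice, with a difference of 0.65 ± 0.11 (limma, adjusted p = 0.000274). Ly6c2 in CD4 cells was 0.654, 0.291 and 0.856 after stress, against 0.193, 0.264 and 0.0837 without it. The groups did not overlap but came close, since stressed mouse 2 lay just above unstressed mouse 2, and the difference was 1.28 ± 0.29 (limma, adjusted p = 0.00225). Only 1.12% of the 2413 genes listed for the comparison had a larger change than Ly6c2.

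The other CD4 members gave smaller differences. Ly6c1, the near-identical neighbour of Ly6c2, was 0.870, 1.27 and 0.767 in the stressed mice and 0.892, 0.878 and 1.36 in the unstressed ones, with overlap and a difference of -0.10 ± 0.18 (limma, adjusted p = 0.644, 95% interval from -0.48 to 0.29). Ly6e was 10.0, 9.89 and 8.92 after stress and 8.95, 8.53 and 8.44 without it, a difference of 0.15 ± 0.07 (limma, adjusted p = 0.0742). The Ly6e difference passed with each mouse centred on its median (0.21, limma adjusted p = 0.0162) and without stressed mouse 3 (0.20, adjusted p = 0.0322). Ly6a2 was 0.0172, 0.00187 and 0.0176 in the stressed mice and was listed at 0 in all 3 unstressed mice. Levels this close to 0 may rest on few molecules, and its difference of 0.16 ± 0.09 gave an adjusted p of 0.178 (limma over all 2999 CD4 genes, of which 51.4% were called in either direction).

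These calls stood in a setting of wide change. In CD4 cells 2 of 5 members were called higher and 0 lower, where 31.0% of the genes listed for the comparison were called higher and 28.9% lower. In CD8a cells 2 of 3 members were called higher and 0 lower, against 26.7% and 41.5% of the listed genes. Centring each mouse on its median changed the CD8a counts over all listed genes to 1138 higher and 854 lower, against 563 and 875 with the values as deposited. The groups of 3 against 3 did not overlap, with stress higher, for 3 of 5 CD4 members and 2 of 3 CD8a members, where 30.1% and 24.5% of all listed genes did the same. An exact two-sided permutation test of any 1 member cannot go below 0.1 with 3 against 3, and it gave that value for Ly6a and Ly6c2 in both cell types and for Ly6a2 in CD4 cells. The calls of Ly6a and Ly6c2 held with any 1 mouse left out.

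In CD4 cells the ratio of Ly6c2 to Ly6c1 within a mouse put the pair in 1 value. It was 0.752, 0.229 and 1.12 in stressed wild-type mice, against 0.216, 0.301 and 0.0616 in unstressed ones. The groups overlapped (exact two-sided permutation p = 0.2). In knockout mice the ratio was 0.798, 0.639 and 1.04 after stress and 0.978, 0.393 and 0.354 without it (exact permutation p = 0.3). Between the unstressed groups the knockout mice were all above the wild-type mice (exact permutation p = 0.1, the smallest possible).

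In knockout mice, stress raised Ly6c2 in CD4 cells, and no other antigen passed the test with all mice and the values as deposited. With each mouse centred on its median, Ly6a2 (0.37, limma adjusted p = 0.0407) and Ly6c1 (0.36, adjusted p = 0.0219) in CD4 cells and Ly6c2 in CD8a cells passed as well. Ly6c2 in CD4 cells was 1.04, 0.643 and 1.04 in stressed knockout mice, against 0.823, 0.345 and 0.379 in unstressed ones. The groups overlapped through unstressed mouse 1, and the difference was 0.76 ± 0.23 (limma, adjusted p = 0.0158). The call ended without stressed mouse 1 (adjusted p = 0.0928), stressed mouse 3 (0.111), unstressed mouse 2 (0.0764) or unstressed mouse 3 (0.0721), with differences between 0.57 and 0.66. It also ended when all 4 groups shared 1 fit (adjusted p = 0.0663).

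Ly6a in the CD4 cells of knockout mice was 2.69, 2.84 and 3.57 after stress, against 5.20, 2.35 and 1.96 without it. Unstressed mouse 1 had the highest Ly6a of all 12 mice, 2.41 times the mean of the other two in its group, and the difference was 0.06 ± 0.24 (limma, adjusted p = 0.888, 95% interval from -0.46 to 0.58). Without that mouse the stressed mice were all above the others and the difference was 0.47 (limma, adjusted p = 0.00347), whereas without unstressed mouse 3 it turned to -0.21 (adjusted p = 0.542). In CD8a cells Ly6a was 0.596, 0.538 and 0.632 after stress, against 0.858, 0.379 and 0.272 without it. The same unstressed mouse was again the highest of all 12, at 2.64 times the mean of the other two, and the difference of 0.31 ± 0.24 (limma, adjusted p = 0.337) was 0.70 without it (adjusted p = 0.00146) and 0.0226 without unstressed mouse 3 (adjusted p = 0.961).

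**Figure D3:**
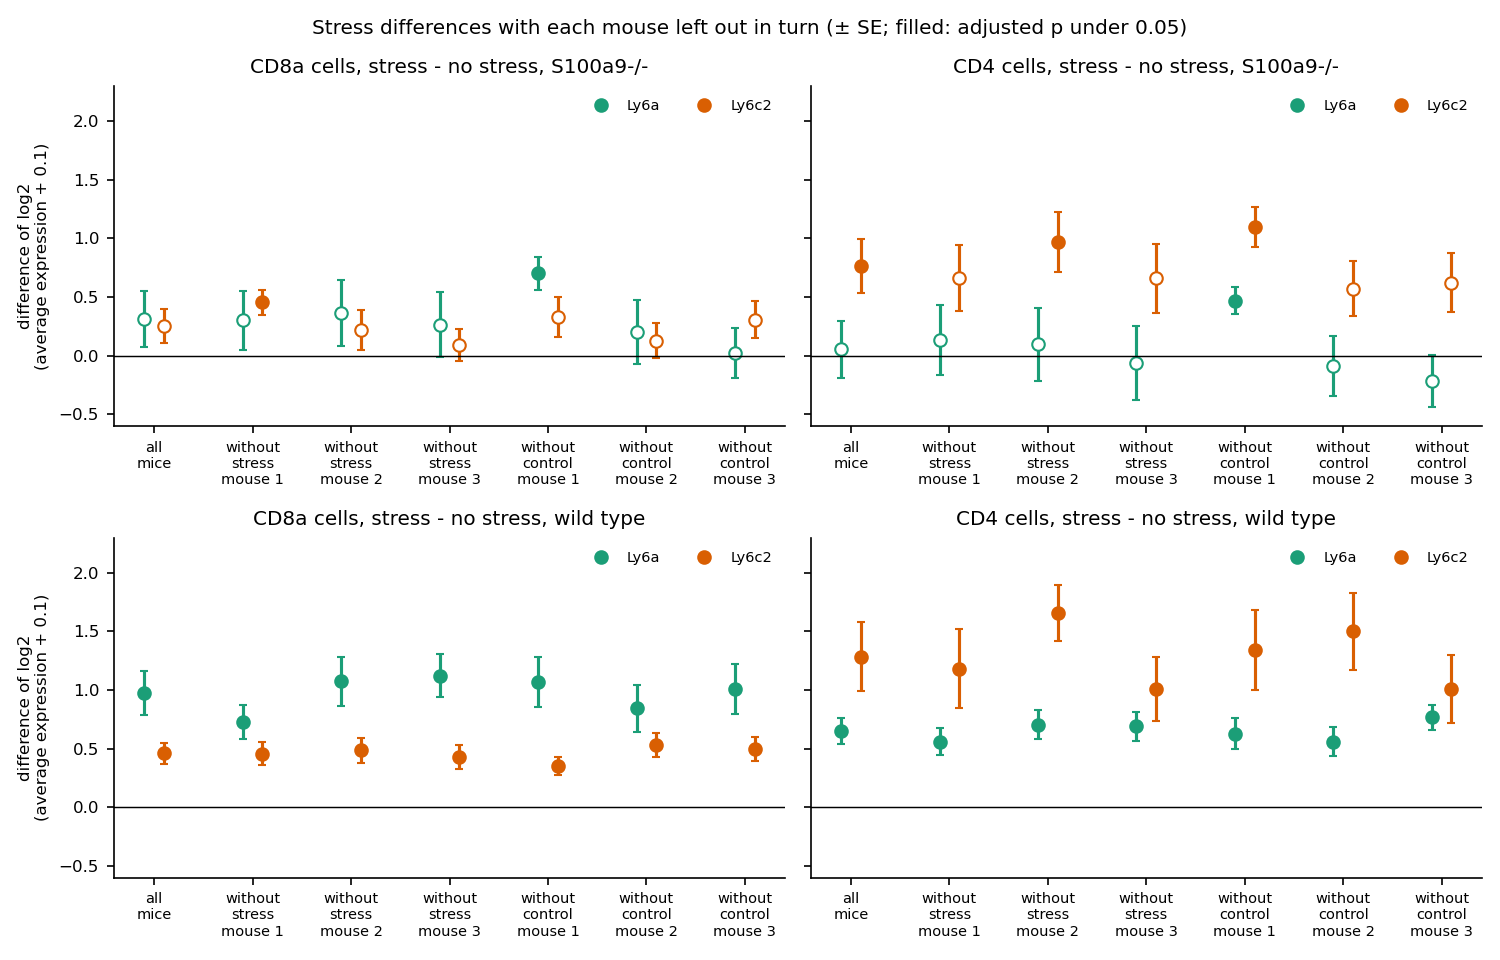
Stress minus no stress difference of log2(average expression + 0.1) for Ly6a and Ly6c2 with all mice and with each mouse left out in turn (points ± SE, filled where the limma adjusted p was under 0.05), for knockout mice (top) and wild-type mice (bottom). All points of wild-type mice are filled, and the knockout Ly6a point is filled only without unstressed mouse 1.

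Ly6c2 in the CD8a cells of knockout mice was 4.48, 6.22 and 7.51 after stress and 5.49, 4.15 and 5.34 without it, with overlap and a difference of 0.26 ± 0.15 (limma, adjusted p = 0.184). The difference was 0.46 without stressed mouse 1 (adjusted p = 0.00205), 0.0889 without stressed mouse 3 (adjusted p = 0.648) and 0.43 with each mouse centred on its median (adjusted p = 0.0227). Ly6e, which was not listed for the stress comparison of knockout mice, was 10.1, 8.47 and 9.58 in CD4 cells after stress and 11.6, 10.2 and 10.1 without it, a difference of -0.18 ± 0.08 over all CD4 genes (limma, adjusted p = 0.12). In CD8a cells Ly6e was 6.56, 6.76 and 7.34 after stress and 8.02, 7.15 and 7.50 without it, a difference of -0.13 ± 0.07 (limma, adjusted p = 0.135). Ly6c1 in CD4 cells was 1.30, 1.01 and 0.997 after stress and 0.842, 0.879 and 1.07 without it (0.22 ± 0.12, limma adjusted p = 0.176). Ly6a2 was 0, 0.0424 and 0.0162 after stress and 0, 0 and 0.00311 without it (0.23 ± 0.14, limma adjusted p = 0.214), which without stressed mouse 1 was 0.35 (adjusted p = 0.0485).

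Of the members, 1 of 5 was called higher in CD4 cells of stressed knockout mice, where 19.5% of listed genes were called higher and 20.0% lower, and 39.5% of all CD4 genes were called in either direction. In CD8a cells 0 of 3 members passed by limma, and 0 had an unadjusted p under 0.05, where 17.9% of listed genes were called higher, 22.1% lower and 46.7% had an unadjusted p under 0.05, and 47.9% of all CD8a genes were called in either direction. Centring gave 931 genes higher and 369 lower in CD4 cells, against 370 and 380 with the values as deposited. In CD8a cells it gave 1094 higher and 425 lower, against 362 and 448. The stressed and unstressed knockout mice overlapped for every member, while 18.3% of all CD4 genes and 18.9% of all CD8a genes had stressed mice all above unstressed ones.

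Whether the stress effect differed between the genotypes was tested by the interaction over all 12 mice. No member passed by limma in CD4 cells (0 of 5, with 1 at an unadjusted p under 0.05) or in CD8a cells (0 of 3, with 0 at that level). Nor did any of the 2999 CD4 genes or 2851 CD8a genes (0.0% each), of which 9.47% and 7.16% had an unadjusted p under 0.05. The knockout minus wild-type difference of the stress effect was -0.59 ± 0.35 for Ly6a in CD4 cells (adjusted p = 0.547, 95% interval from -1.33 to 0.14) and -0.66 ± 0.36 for Ly6a in CD8a cells (adjusted p = 0.691, 95% interval from -1.41 to 0.09). Without unstressed knockout mouse 1 these Ly6a values were -0.18 in CD4 cells and -0.27 in CD8a cells. For Ly6e in CD4 cells it was -0.33 ± 0.11 (adjusted p = 0.392). The stress effect on Ly6a and Ly6c2 was thus called in wild-type CD8a cells and not in knockout CD8a cells without the difference itself passing a test. The stress effects of the 2 cell types did not differ by test either. For Ly6c2 in wild-type mice the CD8a minus CD4 difference of the effect was -0.82 ± 0.42 (limma, adjusted p = 0.69), none of the 3 members had an unadjusted p under 0.05 in either genotype, and 0.0% of the 2166 genes were called, with 7.39% at an unadjusted p under 0.05 in wild-type mice and 6.19% in knockout mice.

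Without stress, every knockout mouse lay above every wild-type mouse for Ly6a, Ly6c2 and Ly6e in both cell types. The same held for 19.6% of all CD4 genes and 12.8% of all CD8a genes. For Ly6a the groups nearly touched, at 1.96 against 1.88 in CD4 cells and 0.272 against 0.270 in CD8a cells. Of these 6 differences only that of Ly6e in CD4 cells passed the test, adjusted over the 496 genes listed for the comparison. Over all 2999 CD4 genes the Ly6e difference did not pass (limma, adjusted p = 0.088). The question here is what the loss of S100a9 changes in T cells of mice that were not stressed. Since mt-Nd3 also followed the labels, loss of S100a9 and other differences between the genotypes cannot be told apart. Ly6e in CD4 cells was 11.6, 10.2 and 10.1 in knockout mice, against 8.95, 8.53 and 8.44 in wild-type mice. The difference was 0.29 ± 0.07 (limma, adjusted p = 0.0475), and the call ended without any 1 of 5 of the 6 mice, at differences from 0.23 to 0.32. In CD8a cells Ly6e was 8.02, 7.15 and 7.50 in knockout mice, against 6.76, 6.70 and 5.91 in wild-type mice (0.22 ± 0.07, limma adjusted p = 0.0691).

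Ly6a varied widely among the unstressed knockout mice. In CD4 cells the unstressed knockout mice had 5.20, 2.35 and 1.96, against 1.53, 1.38 and 1.88 in unstressed wild-type mice (0.83 ± 0.32, limma adjusted p = 0.0742), and the difference was 0.42 without knockout mouse 1 (adjusted p = 0.091) and 1.10 without knockout mouse 3 (adjusted p = 0.0211), which passed. In CD8a cells they had 0.858, 0.379 and 0.272, against 0.270, 0.171 and 0.241 (0.77 ± 0.34, limma adjusted p = 0.0963), which was 0.38 without that mouse (adjusted p = 0.135). Ly6c2 in CD8a cells was 5.49, 4.15 and 5.34 in knockout mice, against 3.04, 3.92 and 3.71 in wild-type mice (0.48 ± 0.14, limma adjusted p = 0.0638). In CD4 cells it was 0.823, 0.345 and 0.379 in knockout mice, against 0.193, 0.264 and 0.0837 in wild-type mice (1.11 ± 0.31, limma adjusted p = 0.111 over all 2999 genes, since Ly6c2 was not listed).

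Of the members, 1 of 5 was called higher in CD4 cells, where 15.1% of the genes listed for the comparison were called higher and 6.65% lower, and over all CD4 genes 0.634% were called in either direction. In CD8a cells 0 of 3 were called by limma, with 2 at an unadjusted p under 0.05, where 3.96% of genes were called higher and 4.29% lower, and 55.1% had an unadjusted p under 0.05. Centring gave 64 CD4 genes higher and 69 lower, against 75 and 33 with the values as deposited. Without unstressed knockout mouse 1, 1 CD4 gene was called higher and 1 lower, and leaving out any 1 mouse other than knockout mouse 3 left at most 8 higher and 19 lower. Without knockout mouse 3, 204 were called higher and 48 lower. The groups did not overlap, with knockout higher, for 3 of 5 members in CD4 cells and 3 of 3 in CD8a cells, where 19.6% and 12.8% of all listed genes did the same. These comparisons share mice with the stress comparisons: the unstressed wild-type mice also stand against the stressed wild-type mice, and the unstressed knockout mice against the stressed knockout mice.

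**Figure D4:**
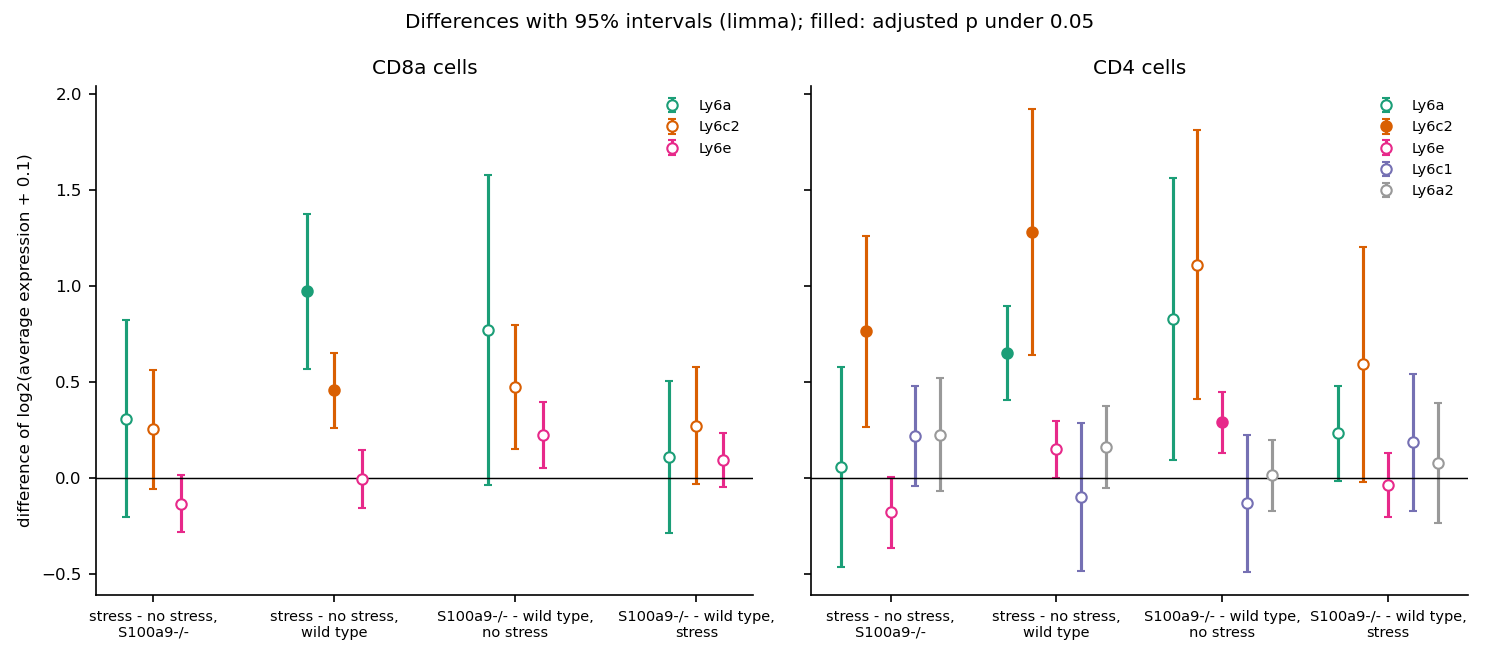
Differences of log2(average expression + 0.1) with 95% intervals (limma) for the Ly6 antigens in CD8a cells (left) and CD4 cells (right), filled where the adjusted p was under 0.05. Ly6a and Ly6c2 pass under stress in wild-type mice of both cell types, Ly6c2 in CD4 cells under stress in knockout mice, and Ly6e in CD4 cells between the unstressed genotypes.

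Between the stressed knockout and stressed wild-type mice no member passed the test, and the authors' tables listed none of them for this comparison. In the fit over all genes 0 of 5 CD4 members and 0 of 3 CD8a members passed by limma, with 0 and 0 at an unadjusted p under 0.05, and 0.1% and 0.21% of all genes were called, with 8.5% and 9.72% at an unadjusted p under 0.05. The groups overlapped for every member, while 8.57% of all CD4 genes and 10.7% of all CD8a genes had stressed knockout mice all above stressed wild-type mice. Among the members Ly6c2 in CD4 cells differed most, by 0.59 ± 0.28 (limma, adjusted p = 0.61, 95% interval from -0.02 to 1.20).

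The order of the group means summarised these values. For Ly6a in CD4 cells it ran from unstressed knockout mice (3.17 ± 1.77, SD, n = 3) through stressed knockout (3.03 ± 0.47) and stressed wild-type mice (2.56 ± 0.30) to unstressed wild-type mice (1.60 ± 0.25), and only the last step had groups that did not overlap. For Ly6a in CD8a cells the means were 0.589 ± 0.0472 in stressed knockout, 0.558 ± 0.210 in stressed wild-type, 0.503 ± 0.312 in unstressed knockout and 0.227 ± 0.0505 in unstressed wild-type mice, again with only the last step free of overlap. Ly6c2 was lowest in unstressed wild-type mice as well, at 0.180 ± 0.0908 in CD4 cells and 3.56 ± 0.460 in CD8a cells, and highest in stressed knockout mice, at 0.907 ± 0.229 and 6.07 ± 1.52. Ly6e alone had its highest mean in unstressed knockout mice in both cell types, at 10.6 ± 0.866 in CD4 cells and 7.56 ± 0.434 in CD8a cells.

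Since Ly6a and Ly6e are interferon-inducible, the interferon response genes were read beside them. In CD4 cells of wild-type mice 10 of 17 listed interferon response genes rose with stress and 2 fell, with a median difference of 0.33 against 0.15 over the genes listed for the comparison. Ifi27l2a, a small interferon-induced protein, rose by 0.71 ± 0.11 (adjusted p = 0.000102 by limma), while Gvin3 and Sp100 fell by 1.15 and by 0.54. In CD8a cells of wild-type mice 4 of 14 rose and 4 fell. In knockout mice none rose and 8 of 16 fell with stress in CD4 cells, and 0 rose and 10 of 15 fell in CD8a cells. Without stress, 6 of 34 were higher and 1 lower in CD4 cells of knockout mice, with a median difference of 0.53 against 0.20 over the genes listed for the comparison. Of those listed genes 15.1% were called higher and 6.65% lower, so the counts do not set the list apart. In CD8a cells 0 of 22 passed by limma, at a median of 0.47 against 0.09 over the listed genes. There 3.96% of the listed genes were called higher and 4.29% lower. Without unstressed knockout mouse 1, chosen after seeing the data, 0 of 34 CD4 genes passed, at a median of 0.32, and under knockout stress 3 of 16 rose and 7 fell in CD4 cells and 1 of 15 rose and 10 fell in CD8a cells. With each mouse centred on its median, 9 of 14 rose and 4 fell under wild-type stress in CD8a cells, and 2 of 16 rose and 7 fell under knockout stress in CD4 cells. Centring also raised the number called higher over all listed genes in these comparisons, as given with their results.

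The summed level of the interferon response genes was highest in the mouse with the highest Ly6a, as were some other sums. Over 43 genes in CD4 cells the sum was 99.8, 73.1 and 64.4 in unstressed knockout mice, against 58.0, 58.0 and 58.3 in unstressed wild-type mice. It was 68.5, 58.5 and 62.1 in stressed knockout mice and 56.0, 52.6 and 54.3 in stressed wild-type mice. Over 32 genes in CD8a cells it was 74.5, 58.2 and 56.9 in unstressed knockout mice, against 50.8, 50.9 and 51.6 in unstressed wild-type mice. The stressed knockout mice had 50.9, 47.0 and 47.5 and the stressed wild-type mice 42.6, 45.3 and 43.7 in CD8a cells. Unstressed knockout mouse 1 was first of 12 in both, and the stressed wild-type mice had the lowest sums. That mouse was also first for the summed monocyte and dendritic markers (3.61 in CD4 and 3.55 in CD8a cells). The same held for the interferon and JAK-STAT signalling genes (14.6 and 14.2) and, in CD4 cells only, the erythroid markers (5.52). It was not first for the neutrophil, natural killer, B cell and plasma cell, or memory and effector sums in either cell type. A linear sum is weighted to the most abundant genes. In CD4 cells of wild-type mice the sum fell with stress, although 10 of 17 genes listed for that comparison rose and 2 fell. The part of interferon response in the Ly6a levels was not tested.

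**Figure D5:**
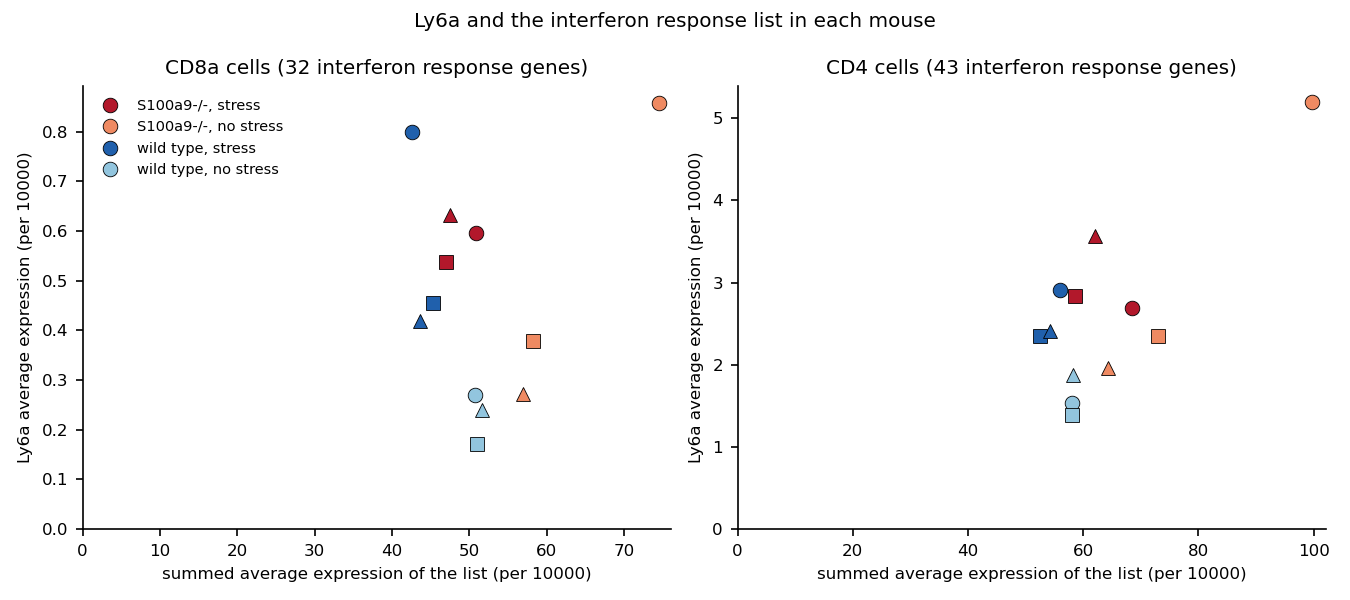
Ly6a average expression (vertical axis) against the summed average expression of the listed interferon response genes (horizontal axis), both per 10000, for each of 12 mice in CD8a cells (left, 32 genes) and CD4 cells (right, 43 genes). Unstressed knockout mouse 1 lies at the upper right in both, and the stressed wild-type mice lie above the unstressed wild-type mice and to their left.

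Other genes of T cell state moved too. Of the listed memory and effector genes, 20 of 30 rose and 1 fell with stress in CD4 cells of wild-type mice, with a median of 0.65 against 0.15 over the genes listed for the comparison. Gzma, a granzyme of killer cells, rose by 3.35 ± 0.40 (adjusted p = 2.06e-05 by limma) and the chemokine gene Ccl5 rose by 2.56 ± 0.33 (adjusted p = 2.93e-05). The 1 that fell was the integrin gene Itga4. Of the naive T cell genes 9 of 10 fell and 1 rose, among them Satb1, a chromatin organiser, by 1.03 ± 0.07 (adjusted p = 1.47e-06 by limma). In CD8a cells of wild-type mice 11 of 21 memory and effector genes rose and 2 fell, and 9 of 10 naive genes fell and 1 rose. In knockout mice 4 of 14 memory and effector genes rose and 2 fell in CD4 cells and 12 of 20 rose and 3 fell in CD8a cells, while 5 of 6 and 9 of 9 naive genes fell. Without unstressed knockout mouse 1 the CD8a count of memory and effector genes was 7 higher and 2 lower, and with centring it was 16 higher and 2 lower, against 8 and 2 in CD4 cells. Over all listed genes centring likewise called more genes higher under knockout stress in both cell types, as given above. The memory and effector genes summed, over 36 genes in CD4 cells, to between 67.0 and 108 in stressed knockout mice and 52.9 and 90.7 in stressed wild-type mice, against 55.6 to 82.3 and 41.7 to 51.2 in unstressed knockout and wild-type mice. These lists contain no member, and their part in the Ly6 levels was not tested.

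Of other GPI-anchored surface proteins of lymphocytes, 2 of 4 rose and 1 fell with stress in CD4 cells of wild-type mice, with Cd52 at 0.26 ± 0.07 (adjusted p = 0.00416 by limma) and the complement regulator Cd55 at -0.90 ± 0.14 (adjusted p = 0.000126). In CD8a cells Thy1, the pan-T-cell antigen, fell by 0.44 ± 0.07 in wild-type mice (adjusted p = 7.33e-05 by limma) and by 0.37 ± 0.07 in knockout mice (adjusted p = 0.000219), while Cd52 rose in both. In CD4 cells of knockout mice Cd52 was the 1 of 2 that rose. Of the genes of GPI anchor synthesis and transfer, 1 of 4 rose with stress in CD4 cells of wild-type mice, Pigx by 0.29 ± 0.10 (limma, adjusted p = 0.0262), and 1 of 5 fell in CD8a cells of wild-type mice, Pigb by 0.66 ± 0.12 (limma, adjusted p = 0.000242). In knockout mice 0 of 5 were called in CD4 cells, and 1 of 5, Dpm3, rose in CD8a cells. Of the genes of interferon and JAK-STAT signalling, 3 of 5 rose and 1 fell with stress in CD4 cells of wild-type mice, while 0 of 5 rose and 2 fell in CD8a cells. In knockout mice 0 of 3 rose and 1 fell in CD4 cells, and 0 of 5 rose and 2 fell in CD8a cells. Of all listed genes, 31.0% rose and 28.9% fell with wild-type stress in CD4 cells, and 26.7% and 41.5% in CD8a cells. With knockout stress the shares were 19.5% and 20.0% in CD4 cells and 17.9% and 22.1% in CD8a cells. These shares also belong beside the stress counts of the interferon, memory and naive lists. Counts from so few genes do not set a list apart from them. Among 26 further genes of the Ly6/uPAR family the tables held only Ly6k, which did not pass in wild-type stress in either cell type. With centring, 3 of 5 signalling genes rose and 2 fell under wild-type stress in CD8a cells, and 3 of 5 anchor genes rose there and 1 fell. The shares above are without centring, and centring called more of all listed genes higher there as well.

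Markers of other cells were summed beside the Ly6 levels, and some of these sums differed between the groups while others overlapped. In CD4 cells the natural killer markers, 7 of 12 listed and several shared with effector T cells, summed to between 14.5 and 41.3 in stressed knockout mice and 9.53 and 29.0 in stressed wild-type mice, against 4.66 to 8.45 and 3.04 to 4.90 in unstressed knockout and wild-type mice. The monocyte and dendritic markers, 8 of 17 listed, summed to between 1.78 and 2.44, 1.90 and 2.70, 2.09 and 3.61, and 1.10 and 1.52 in stressed knockout, stressed wild-type, unstressed knockout and unstressed wild-type mice. The neutrophil markers, 4 of 14 listed, summed to between 0.225 and 0.449, 0.116 and 0.323, 0.0796 and 0.280, and 0.0118 and 0.0304 in those groups. The pair of CD8 markers, read in the CD4 cells, summed to between 0.433 and 0.982 in stressed knockout mice and 0.403 and 1.15 in stressed wild-type mice, against 0.532 to 0.611 and 0.408 to 0.982 without stress. In CD8a cells the monocyte and dendritic markers, 4 of 17 listed, summed to between 2.59 and 2.91, 2.51 and 3.10, 2.53 and 3.55, and 2.06 and 2.29 in the 4 groups. The natural killer markers in CD8a cells, 4 of 12 listed, summed to between 25.6 and 47.2, 25.1 and 31.2, 17.5 and 22.4, and 13.8 and 19.3. The neutrophil markers in CD8a cells, 5 of 14 listed, lay between 0.228 and 0.302, 0.0981 and 0.265, 0.0768 and 0.248, and 0.00618 and 0.0474. In CD4 cells the erythroid markers, 4 of 8 listed, summed to between 1.70 and 5.08, 0.197 and 2.36, 0.627 and 5.52, and 0.0891 and 0.141, and 4 of 4 were called higher under wild-type stress. Between unstressed knockout and wild-type mice 4 of 4 were called higher at a median of 2.36, where 15.1% of the listed genes were called higher. These erythroid calls ended without knockout mouse 1, at a median of 1.95. In CD8a cells their sum lay between 1.39 and 15.9, 0.228 and 0.688, 0.351 and 2.77, and 0.0342 and 0.850, and 4 of 4 were called higher in stressed knockout than in stressed wild-type mice, at a median of 2.32, where 27.3% of the 99 genes listed for that comparison were called higher. The B cell and plasma cell markers, 7 and 8 of 16 listed, summed to between 3.42 and 4.11, 4.32 and 7.08, 7.51 and 11.2, and 3.44 and 8.95 in CD4 cells and to between 5.13 and 6.36, 4.60 and 6.91, 10.5 and 13.7, and 7.0 and 12.7 in CD8a cells. Under knockout stress 7 of 7 listed B cell markers were called lower in CD4 cells and 8 of 8 in CD8a cells. Of all listed genes 20.0% and 22.1% were called lower in those comparisons. Under wild-type stress 4 of 6 listed monocyte and dendritic and 2 of 2 neutrophil markers were called higher in CD4 cells, and 0 lower. In CD8a cells these were 1 of 3, with 1 lower, and 2 of 2. Of all listed genes 31.0% and 26.7% were called higher there. The monocyte and dendritic markers called higher in CD4 cells were Ccr2, Cst3, Lyz2 and Plac8, and Ccr2 also stands in the memory and effector list. Plac8 was the 1 called higher in CD8a cells. Its mean there, from 1.08 in unstressed wild-type to 1.77 in stressed knockout mice, made up most of the monocyte and dendritic sum in the means of those groups (2.18 and 2.80). Between the unstressed genotypes 3 of 7 monocyte and dendritic markers were called higher in CD4 cells of knockout mice, and 0 without knockout mouse 1. With all mice 15.1% of the genes listed for that comparison were called higher. Csf1r, Itgam and Ly6g, defining genes of monocytes and neutrophils, were not among the genes listed for either cell type, which does not show that they were absent. Monocytes also carry Ly6C, and the part of these other cells in the Ly6 levels was not tested.

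By Pearson's r over the 12 mice, Ly6a in CD4 cells was most like Ifi27l2a (r = 0.929), Ifi47 (0.921) and Reep5 (0.904) among 1329 genes compared. Ifi27l2a was 18.4, 10.3 and 6.68 in unstressed knockout mice, against 4.81, 5.76 and 5.90 in unstressed wild-type mice, and 14.0, 10.9 and 12.5 in stressed knockout against 10.6, 8.92 and 7.76 in stressed wild-type mice. Without unstressed knockout mouse 1 the r values were 0.900, 0.912 and 0.894. In CD8a cells Ly6a was most like Cfl1 (0.955), Plac8 (0.941) and Ppib (0.940) among 1250 genes. Ly6c2 was most like Epsti1 (0.948), H2az1 (0.947) and Sh3bgrl3 (0.934) in CD4 cells, and like Hopx (0.916), H2az1 (0.839) and Tmem160 (0.839) in CD8a cells. For Ly6e the closest were Il2rb (0.790), Rala and Ucp2 in CD4 cells and Actg1 (0.827), Ms4a4b and Ms4a6b in CD8a cells, while no gene exceeded an r of 0.580 with Ly6c1. Ly6a2, near 0 in most mice, was most like Sh2d1a (0.898), Ifi27 and Ssr2. The 12 points share 4 groups and their sequencing scale, so these values describe likeness only.

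Among the members, Ly6a and Ly6c2 went together over the 12 mice with r = 0.730 in CD4 cells and 0.615 in CD8a cells. Ly6a and Ly6e had r = 0.670 in CD4 cells and 0.324 in CD8a cells, and without unstressed knockout mouse 1 these were 0.419 and 0.0529. Ly6c1 and Ly6c2, the most similar pair in transcript sequence, had r = -0.297 in CD4 cells.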

How the data were processed

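Splenocyte libraries came from the 10x Genomics 3' chemistry, per the labels' protocols, and the submitters' processing notes name Cell Ranger 2.1.1 and mm10. The 8 deposited tables, 4 each for CD4 and CD8a cells, hold a linear signal, an average per mouse by the tables' titles, with 1 column for each of 12 mice per the file headers. The scale per 10000 was inferred from sums under that value. How cells were called and how doublets were treated is not given in the sources used here, nor is the rule for listing genes. The titles call each list inclusiveDE for the groups compared, so listing may rest on the differences tested here. Adjusted p-values and called shares over a list then hold within that list only. Between unstressed genotypes in CD4 cells 15.1% of 496 listed genes were called higher and 6.65% lower, against 0.634% of all 2999 in either direction.

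Columns were matched to mice by the sample number in their titles, and 0 columns were left unused. Values plus 0.1 were log2-transformed and tested in R 4.3.3 by limma 3.58.1, using a mean-variance trend and calling at an adjusted p under 0.05, over the genes listed for a comparison, or over all genes of the cell type where a member was not listed. The fold scale of log2(value + 0.1) understates changes of low genes. Genotype by stress was an interaction over 12 mice, and cell types were compared within mice. Single members had exact two-sided permutation tests. The scripts were tested on simulated data. Depth per mouse is unknown. Samples labelled as mice are the replicates, and same-numbered mice are not paired by the labels: deviations from group means correlated over genes between -0.241 and 0.240.

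The members and gene lists were chosen with earlier results of these data known. Named beyond the members are the 3 genes with the highest r per member and up to 3 genes with the smallest p per list in a stress comparison. Genes named outside this rule (mt-Nd3, Ly6k and the markers Itgam, Csf1r, Ly6g, Cd4, Cd8a, S100a9, Ccr2, Cst3, Lyz2 and Plac8) were chosen after their listing was seen. Other settings are described in the closing section.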

Additional observations from a re-analysis of the deposited data

How the results depend on the processing

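The 61 member differences were refitted in 471 other ways with all mice (pseudocounts of 0.01 and 1, low genes removed, all genes of a cell type, centring each mouse on its median, ribosomal and mitochondrial genes removed, no trend, 1 fit of all 4 groups, a replicate block), of which 14 changed the call or direction, and in 540 with a mouse left out, of which 15 did.

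The calls of Ly6a and Ly6c2 under wild-type stress held in every one of these fits. Centring moved the median of the genes listed for the comparison upward from 0.13 to 0.27 in CD4 and from 0.11 to 0.29 in CD8a cells under knockout stress, and from 0.09 to 0.29 in CD8a cells under wild-type stress. With it Ly6e passed under wild-type stress in both cell types, reaching 0.21 in CD4 cells and turning to 0.19 in CD8a cells. Under knockout stress Ly6a2 (0.37), Ly6c1 (0.36) and CD8a Ly6c2 (0.43) passed. The cause was not tested. With 1 fit of all 4 groups CD4 Ly6c2 under knockout stress lost its call at 0.76, while between unstressed genotypes CD4 Ly6a (0.83), CD8a Ly6c2 (0.48) and CD8a Ly6e (0.22) gained it. CD4 Ly6e between unstressed genotypes lost its call with a pseudocount of 1 (0.27), low genes removed, all CD4 genes or no trend (0.29 each) and rescaling (0.25).

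Without 1 mouse, Ly6a under knockout stress ran from -0.21 to 0.47 in CD4 and from 0.0226 to 0.70 in CD8a cells, Ly6c2 from 0.57 to 1.10 and from 0.0889 to 0.46, and Ly6a2 from 0.0934 to 0.35. CD4 Ly6e under wild-type stress ran from 0.12 to 0.20 and passed at 0.20, without stressed mouse 3. Between unstressed genotypes CD4 Ly6a ran from 0.42 to 1.10 and CD4 Ly6e from 0.23 to 0.33. Counts over the listed genes between unstressed genotypes changed with the setting: in CD4 cells 75 higher and 33 lower became 1 and 3 with a pseudocount of 1, 13 and 6 over all CD4 genes, 15 and 4 with rescaling, 49 and 20 with no trend, 167 and 60 in 1 fit of all groups and 174 and 55 with the replicate block, and in CD8a cells 12 and 13 became 28 and 35 with no trend, 54 and 50 in 1 fit and 6 and 7 with the block. Over all genes of the cell type 844 CD4 and 981 CD8a genes fell under knockout stress, against 380 and 448. Averages without cell numbers give no counting error, and Ly6a2 stays near 0.

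With the replicate block all 61 calls were as before, for example Ly6a at 0.65 in CD4 cells under wild-type stress; with same-numbered mice not paired, this says little.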
